A study of Mus musculus with 7 samples.

Results

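*Mcm2* and *Cdt1* are a pair of replication licensing genes, and their binding by RNA POLII, C-MYC and SOX2 was read from ChIP-seq peaks in proliferating otic progenitor cells. Every peak that overlapped a window around either gene was taken, chr6:88823000-88859000 for *Mcm2* and chr8:125081000-125108000 for *Cdt1*. The windows extend about 10 kb to either side of each gene, in positions of mm9, the mouse genome build that the submitters' processing notes name. They held 28 of the 238420 peaks in the 6 lists, 18 at *Mcm2* and 10 at *Cdt1*.

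The cells, called iMOP for immortalized multipotent otic progenitor, are mouse cells derived from SOX2-expressing cells of the embryonic cochlea by infection with a *c-Myc* retrovirus. They were grown as floating otospheres in DMEM/F12 with B27 and 20 ng/ml of bFGF, a growth factor. ChIP-seq isolates the DNA bound by a protein with an antibody and sequences it, and 2 biological replicates were made with each of 3 antibodies, against RNA POLII (clone 4H8), C-MYC (N-262) and SOX2 (clone 6F1.2). All 6 ChIP samples are of iMOP cells in the same medium, so the antibody and the replicate number are the only labelled differences between them. The labels do not say whether the replicates came from separate iMOP lines. They mention small molecules added in some treatments but name none for these samples. Peaks of the input DNA were not analysed here, and peaks without gene names cannot check the labelled cell type against its markers. Each list held 26637 to 53528 peaks with 1705241 to 4488517 tags, which are the sequence reads counted in a peak. The total number of reads is unknown. POLII replicate 1 stood apart, with the most peaks and the lowest median, 23 tags per peak against 35 to 68 in the other lists, and the counts, medians and ratios that involve it are given with and without it. Without POLII replicate 1 the windows held 16 peaks at *Mcm2* and 9 at *Cdt1*. SOX2 replicate 2 differed as well, with the fewest peaks (26637) and the lowest median fold enrichment (6.61), a ratio explained below. Its largest peak held 40594 tags, against 1280 to 6094 in the other lists.

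Licensing prepares each origin of replication to fire once per cell cycle. In G1 phase, CDT1 works with the origin recognition complex and CDC6 to load the MCM helicase, of which MCM2 is a subunit, onto DNA as an inactive ring. Once S phase begins CDT1 is degraded or held inactive by geminin, so that DNA already copied is not licensed again. Both genes are known to be transcribed more in dividing than in resting cells, in large part through E2F factors. C-MYC is a basic helix-loop-helix factor that binds E-boxes, SOX2 is an HMG-box factor that marks neurosensory precursors of the inner ear, and POLII transcribes protein-coding genes.

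The RefSeq promoters of both genes are shown because the strongest peaks lay at the side of each window where the gene's start falls. The 250 bases before the start are given 5′ to 3′ on the strand of the gene, *Mcm2* on the minus strand at chr6:88898781-88899030 and *Cdt1* on the plus strand at chr8:122567765-122568014. These positions are of GRCm38.p6 and cannot be set beside the mm9 positions of the peaks. Capitals mark the GC box GGGCGG and the CCAAT box, which reads ATTGG when it lies on the other strand.

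Mcm2: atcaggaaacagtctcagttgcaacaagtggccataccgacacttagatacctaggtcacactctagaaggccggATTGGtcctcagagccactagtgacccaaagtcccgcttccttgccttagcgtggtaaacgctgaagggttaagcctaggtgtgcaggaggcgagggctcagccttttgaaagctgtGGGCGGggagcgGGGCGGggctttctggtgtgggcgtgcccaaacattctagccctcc

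Cdt1: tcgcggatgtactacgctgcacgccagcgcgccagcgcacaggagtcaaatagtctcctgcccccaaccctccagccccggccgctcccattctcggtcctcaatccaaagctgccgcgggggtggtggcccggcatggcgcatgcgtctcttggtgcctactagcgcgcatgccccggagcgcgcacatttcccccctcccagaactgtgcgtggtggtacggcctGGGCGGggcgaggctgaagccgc

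The *Mcm2* promoter held 2 GC boxes, which began 58 and 46 bases before the start, and a CCAAT box on the opposite strand that began 175 bases before it. The *Cdt1* promoter held 1 GC box, 23 bases before the start. Of all 32851 RefSeq promoters of 300 bases, which run from 250 bases before to 50 after a start, 35.7% held a GC box and 37.4% a CCAAT box on either strand. An E2F motif, TTTGGCGC, began at base 33 after the *Cdt1* start, just past the sequence shown. One of the forms TTTCCCGC, TTTCGCGC, TTTGCCGC or TTTGGCGC was present in 2.26% of promoters, on either strand, and none was found at *Mcm2*. Neither promoter held the E-box CACGTG (7.15% of promoters) or the SOX core ACAAT (31.0%) on either strand. Other forms of an E-box or a SOX site were not searched. The printed *Cdt1* bases were 68.4% G or C with 25 CpG dinucleotides, and those of *Mcm2* were 56.8% G or C with 10 CpG, against medians of 52.4% and 6 over all promoters. These letter matches describe the reference sequence and are not measured sites.

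To ask whether POLII, C-MYC and SOX2 occupied the same place at each gene, overlapping peaks of all 6 lists were merged into regions. The *Mcm2* window held 7 regions and the *Cdt1* window 2. The strongest region of a window is the one with the highest median rank by tags, where the rank of a peak is the percentage of peaks in its own list that held fewer tags. A list without a peak was given the lowest possible rank, so the choice favoured regions with a peak in many lists. It also favoured high tags, among 7 regions at *Mcm2* and 2 at *Cdt1*. Ranks and shares by tags at the strongest regions, given below, thus use the value that chose them. They describe these peaks and are not a test of their strength. At both genes the strongest region had a peak in all 5 lists other than POLII replicate 1. Of the 115440 merged regions in the genome, 11.3% did. The 115440 include 40660 regions (35.2%) with a peak in POLII replicate 1 alone, which lower that share. Shares of merged regions, here and below, are given only with these counted. The 11.3% is over regions not chosen by rank, so it is a background and not a test of sharing at these genes. With only the 50% of each list with the highest score, 4 lists had a peak at each gene, SOX2 replicate 2 being lost at *Mcm2* and C-MYC replicate 2 at *Cdt1*. When each list was reduced to its 26637 peaks of highest score, the length of the shortest list, there were 5 lists at *Mcm2* and 4 at *Cdt1*, where C-MYC replicate 2 was again lost.

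**Figure D1:**
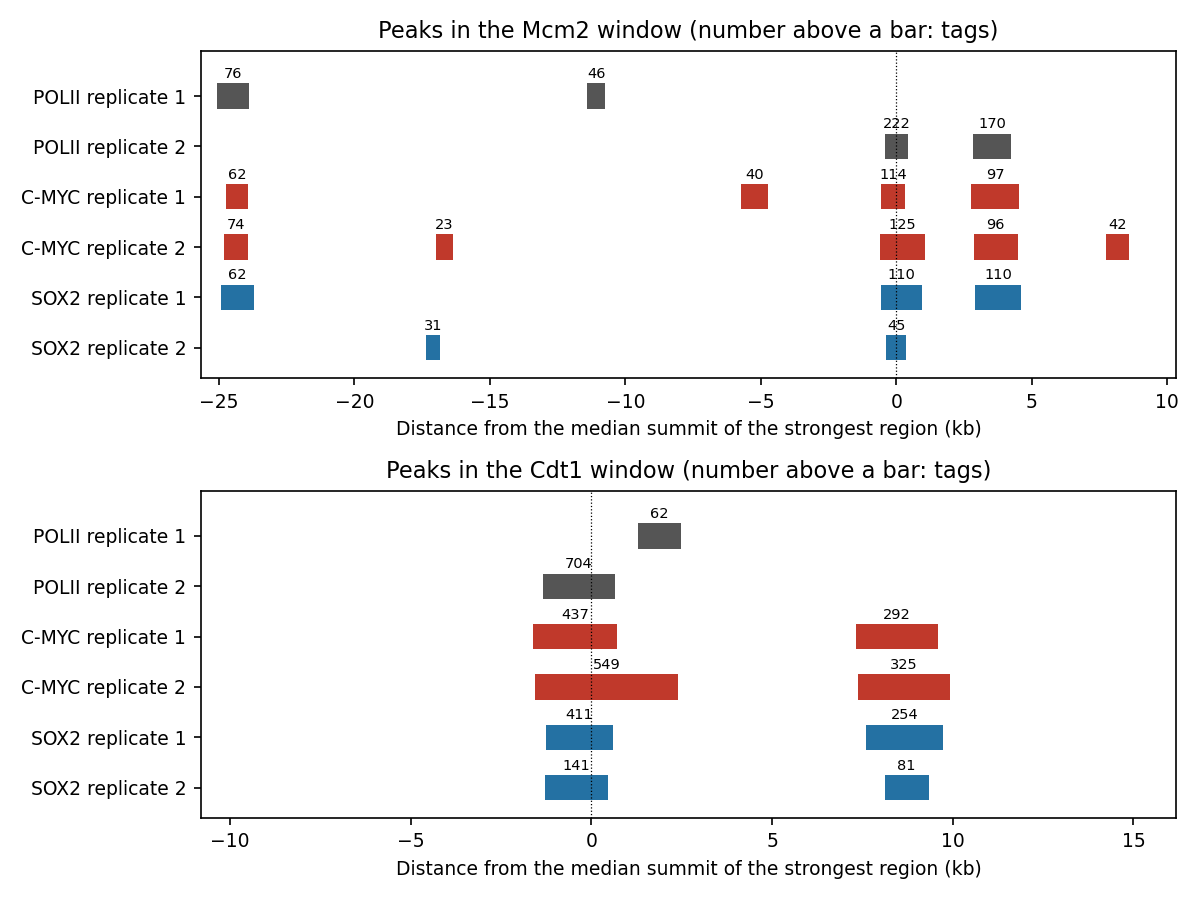
Peaks of the 6 lists in the *Mcm2* window (top) and the *Cdt1* window (bottom), drawn to scale as bars, with the distance from the median summit of the strongest region in kb on the x axis and the tags of each peak above its bar. At 0 kb, 5 lists have a peak at *Mcm2* and *Cdt1* alike, and the POLII replicate 1 peak at *Cdt1* lies to the side and overlaps the C-MYC replicate 2 peak alone.

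The strongest *Mcm2* region spanned chr6:88848049-88849721. Its median summit, the position of highest tag density, lay 10.3 kb inside the upper end of the window, which is where the start of this minus-strand gene falls if the flank is about 10 kb. The exact start was not placed, because the gene annotation used here is of GRCm38.p6. The POLII replicate 2 peak held 222 tags. C-MYC peaks held 114 tags in replicate 1 and 125 in replicate 2, and SOX2 peaks held 110 tags in replicate 1 and 45 in replicate 2 (95% exact Poisson interval 32.8 to 60.2, counting error only). The C-MYC replicates lay within each other's counting intervals (94.0 to 136.9 and 104.0 to 148.9), and the SOX2 replicates did not, with tags unscaled for depth. POLII replicate 1 had no peak at this region, and its nearest lay 10.1 kb away.

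Fold enrichment, the deposited ratio of a peak over a background that is not stated, was 15.10 for POLII replicate 2 at *Mcm2*. It was 14.01 and 13.20 in the C-MYC replicates and 11.03 and 4.24 in the SOX2 replicates. The raw folds of POLII replicate 2 and C-MYC were close, but the lists differ in scale. The median fold was 7.91 over the peaks of POLII replicate 2, and 10.64 and 10.49 over those of the C-MYC replicates. SOX2 replicate 2 was low both in tags and in fold. By tags, the *Mcm2* peak outranked 78.8% of peaks in POLII replicate 2, 82.8% and 83.4% in the C-MYC replicates, and 79.5% in SOX2 replicate 1. In SOX2 replicate 2 it outranked 44.9%, below the middle of that list. By fold it outranked 93.4% of peaks in POLII replicate 2, 76.7% and 74.4% in the C-MYC replicates, 71.7% in SOX2 replicate 1 and 5.92% in SOX2 replicate 2. The median rank by tags over the 5 lists was 79.5%.

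The strongest *Cdt1* region spanned chr8:125090188-125094288, with a median summit over the 5 lists 10.8 kb inside the lower end of the window, the side of the start of this plus-strand gene. The POLII replicate 2 peak held 704 tags (95% exact Poisson interval 653 to 758). C-MYC peaks held 437 and 549 tags, and SOX2 peaks held 411 and 141. These were among the largest tag counts of their lists, and the peaks outranked 98.6% of peaks in POLII replicate 2, 99.3% and 99.7% in the C-MYC replicates, and 99.4% and 93.0% in the SOX2 replicates.

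POLII replicate 1 had a *Cdt1* peak of 62 tags at chr8:125093091-125094288. It overlapped the C-MYC replicate 2 peak by 1119 bp and none of the other 4 peaks, and its summit lay 1690 bp from the median summit of the other lists. It joined the region only through the length of that C-MYC peak, 3970 bp. Counting summits within 500 bp of the median summit, an alternative chosen after the data were seen, gave 5 lists at each gene. The median *Cdt1* rank by tags was 99.0% over 6 lists and 99.3% without POLII replicate 1.

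Fold enrichment at *Cdt1* was modest by comparison. It was 7.12 in POLII replicate 2, 7.64 and 7.57 in the C-MYC replicates, and 6.97 and 3.86 in the SOX2 replicates. The *Cdt1* peak outranked only 40.0% of POLII replicate 2 peaks by fold, 19.0% and 19.6% of C-MYC peaks, and 23.5% and 2.43% of SOX2 peaks. The median rank was 19.3% by fold, with POLII replicate 1 (3.52-fold, rank 0.635%) included, and 19.6% without it. Peaks with at least as many tags as *Cdt1* had a median fold of 7.62 in POLII replicate 2 and of 8.49, 8.02 and 8.22 in the C-MYC replicates and SOX2 replicate 1, and 34.0% to 44.7% of them had a lower fold than *Cdt1* in these 4 lists. In SOX2 replicate 2 that median was 7.35, and 5.07% of such peaks had a lower fold than *Cdt1*.

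The deposited score, which is 10 times the −log10 of the p-value of a peak, divided the C-MYC replicates at *Cdt1*. It was 328.31 in replicate 1 and 54.97 in replicate 2, although replicate 2 held more tags. The replicate 2 peak was longer than 99.9% of peaks in its list, and its score was higher than that of 9.12% of them. The median *Cdt1* rank by score was 73.8% over 6 lists and 89.9% without POLII replicate 1. The score was 730.84 in POLII replicate 2 and 482.93 and 88.28 in the SOX2 replicates. At *Mcm2* the scores were 751.43 in POLII replicate 2, 353.13 and 180.58 in the C-MYC replicates, and 170.82 and 66.41 in the SOX2 replicates. For POLII replicate 2 and C-MYC replicate 1 the scores of both genes were close, while their tags differed more than 3 times.

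**Figure D2:**
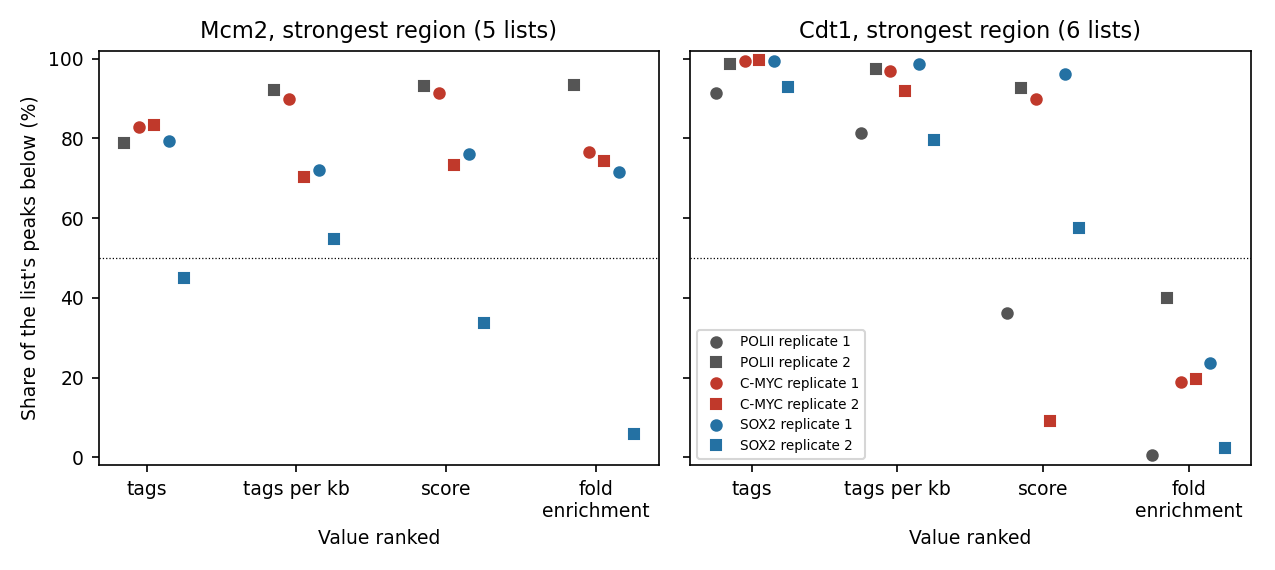
Rank of the strongest *Mcm2* (left) and *Cdt1* (right) peak within each list, as the share of the list's peaks below it in percent, by tags, tags per kb, score and fold enrichment; circles are replicate 1, squares replicate 2, and the dotted line is the middle of a list. *Cdt1* lies at 91.4% or higher by tags in all 6 lists and at 40.0% or lower by fold enrichment, while *Mcm2* runs from 44.9% to 83.4% by tags, from 33.6% to 93.1% by score and from 5.92% to 93.4% by fold enrichment, with SOX2 replicate 2 lowest each time.

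The genes were then compared within each list, where antibody and depth are common to both. *Cdt1* held more tags than *Mcm2* in 5 of 5 lists, by 3.17 times in POLII replicate 2, 3.83 and 4.39 times in the C-MYC replicates, and 3.74 and 3.13 times in the SOX2 replicates. The mean log2 ratio of *Mcm2* to *Cdt1* tags was -1.86 ± 0.20 (SD, n = 5 lists; exact sign-flip permutation test over lists, two-sided, p = 0.0625). Fold enrichment went the other way and was higher at *Mcm2* in 5 of 5 lists, with a mean log2 ratio of 0.71 ± 0.36 (SD, n = 5; same exact test, p = 0.0625). The ratio of the folds ran from 1.10 in SOX2 replicate 2 to 2.12 in POLII replicate 2. With 5 lists 0.0625 is the smallest p that this test can give, so neither difference can pass 0.05. The lists include replicate pairs of C-MYC and of SOX2, so they are not independent units. The SD is the spread between lists and does not measure the uncertainty of a difference between the genes. Both regions were chosen by their tags, from unlike numbers of regions, so the tag ratio compares the strongest region of each window only.

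The peaks differed in length as well. *Cdt1* peaks were 1758 to 3970 bp long and *Mcm2* peaks 733 to 1673 bp, and within a list the *Cdt1* peak was 1.24 to 2.57 times as long. Per kb of peak, *Mcm2* held 266.8 tags in POLII replicate 2, 125.7 and 74.7 in the C-MYC replicates and 72.9 and 61.4 in the SOX2 replicates. *Cdt1* held 353.2, then 187.5 and 138.3, then 219.3 and 80.2 tags per kb. The density was thus also higher at *Cdt1* in 5 of 5 lists (mean log2 ratio of *Mcm2* to *Cdt1* -0.77 ± 0.50, SD, n = 5; exact sign-flip permutation p = 0.0625), by less than the total tags. With the tags of all peaks in a window summed, the mean log2 ratio was -0.86 over 6 lists (exact sign-flip permutation p = 0.0938) and -1.23 without POLII replicate 1 (exact permutation p = 0.0625), which alone held more tags at *Mcm2* (122) than at *Cdt1* (62).

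**Figure D3:**
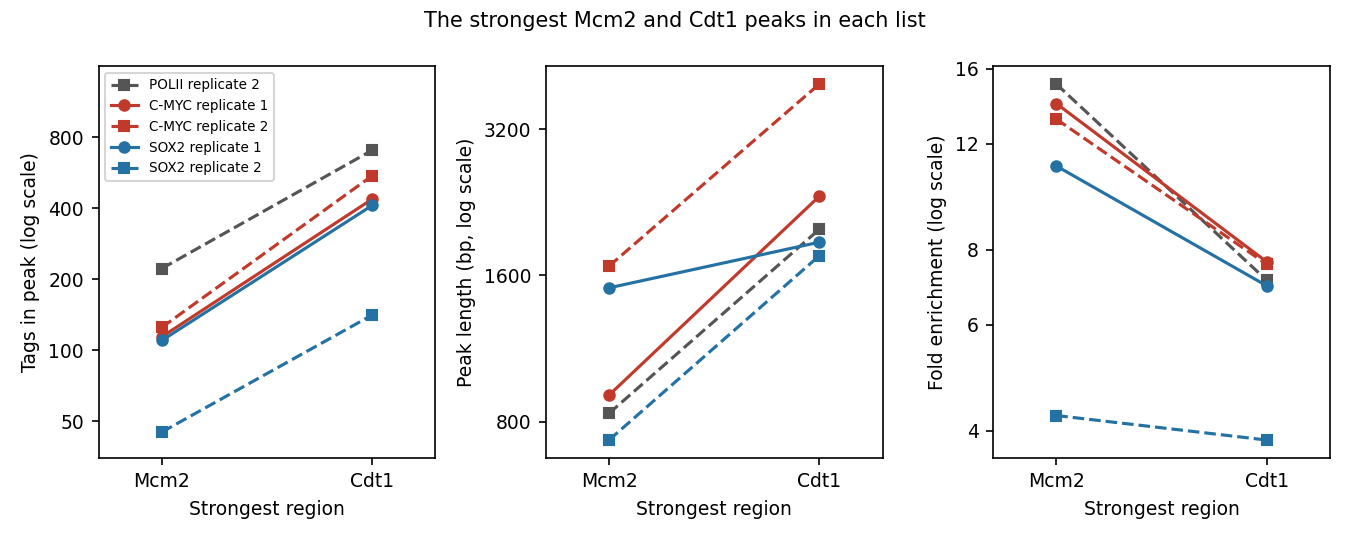
Tags (left), peak length in bp (middle) and fold enrichment (right) of the strongest *Mcm2* and *Cdt1* peaks on log scales, with a line for each of the 5 lists that have a peak at both summits. Every line rises from *Mcm2* to *Cdt1* for tags and length, and every line falls for fold enrichment.

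Set against the 13061 regions with a peak in all 5 lists, *Mcm2* lay above the middle by tags in 4 of 5 lists. Its tags exceeded those of 64.9% of these regions in POLII replicate 2, 61.4% and 61.1% in the C-MYC replicates, 56.0% in SOX2 replicate 1 and 22.4% in SOX2 replicate 2. Its fold enrichment was higher than in 90.4% of them for POLII replicate 2, 70.1% and 66.3% for C-MYC, and 59.0% and 7.01% for SOX2. By score the shares were 85.3% for POLII replicate 2, 76.4% and 38.1% for C-MYC, and 45.7% and 18.5% for SOX2. By tags per kb they ran from 37.9% to 83.8% over the lists, and by peak length from 24.1% to 83.8%. *Cdt1* exceeded 97.6% of the regions by POLII tags, 98.7% and 99.3% by C-MYC tags, and 98.6% and 88.5% by SOX2 tags. Its peaks were longer than those of 90.4% to 99.9% of these regions, depending on the list. By fold, however, *Cdt1* exceeded 24.8% of the regions for POLII replicate 2, 13.2% in each C-MYC replicate, and 15.9% and 2.83% for SOX2. By score it exceeded 84.4% for POLII replicate 2, 73.0% and 0.498% for C-MYC, and 89.0% and 40.5% for SOX2. POLII replicate 1 had a peak at 19.9% of the regions. Unlike the regions of *Mcm2* and *Cdt1*, the 13061 were not chosen by their tags.

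The study compares which promoters C-MYC and SOX2 occupy. Strength of signal is a different measure, and it was compared here by ranks within a list, as tags are not scaled for depth. The C-MYC lists held 42435 and 44146 peaks and the SOX2 lists 39878 and 26637, so a rank is not taken against the same peaks in each. At *Mcm2* the mean rank by tags was 20.9 percentage points higher in the C-MYC lists (exact permutation test of 2 lists against 2, two-sided, p = 0.333, the smallest this design allows). The difference was 3.63 points without SOX2 replicate 2. At *Cdt1*, where all 4 ranks were 93.0% or higher and leave little room for a difference, it was 3.34 points (same exact permutation test, p = 0.667), and 0.152 points without SOX2 replicate 2. Ranked among the same 13061 shared regions, an alternative chosen after the data were seen, the differences were 22.0 points at *Mcm2* and 5.46 points at *Cdt1* (exact permutation p = 0.333 for each). By score the *Cdt1* difference was -27.3 points, with SOX2 higher, and 13.1 points, with C-MYC higher, without C-MYC replicate 2, so 1 list set its direction. With 2 lists of each antibody the test cannot pass 0.05.

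The same dependence on the SOX2 replicate appeared in tag ratios. The log2 ratio of C-MYC to SOX2 tags at *Mcm2* was 0.05 and 0.18 with SOX2 replicate 1 (C-MYC replicates 1 and 2), against medians of -0.05 and 0.10 over the 13061 shared regions. With SOX2 replicate 2 it was 1.34 and 1.47, against medians of 0.32 and 0.46. At *Cdt1* the ratios were 0.09 and 0.42 with SOX2 replicate 1, and 1.63 and 1.96 with SOX2 replicate 2. Relative to shared regions, C-MYC tags at both genes were within 0.32 of the median on the log2 scale with SOX2 replicate 1, and at least 1.01 above it with SOX2 replicate 2. With SOX2 replicate 2, 82.9% and 82.8% of shared regions had a lower ratio than *Mcm2*, and 89.3% and 92.5% a lower ratio than *Cdt1*.

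Summit positions were taken as the start of a peak plus its summit offset. At *Mcm2* the POLII replicate 2 summit lay at chr6 position 88848667, those of C-MYC at 88848699 and 88848671, and those of SOX2 at 88848615 and 88848623. All 5 fell within 84 bp. At *Cdt1* the POLII replicate 2 summit lay at chr8 position 125091967, the C-MYC summits at 125091811 and 125091830, and the SOX2 summits at 125091670 and 125091610, a range of 357 bp. Over the 13061 shared regions the median range of the 5 summits was 135 bp (quartiles 72 and 302), and 30.8% of regions had a narrower range than *Mcm2* and 79.7% a narrower range than *Cdt1*.

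At both genes the SOX2 summits lay at lower coordinates than the C-MYC and POLII replicate 2 summits. Of the 13061 shared regions, 9.64% had this order and 9.20% the reverse, with both SOX2 summits above the other 3. Since the genes are on opposite strands, that is the downstream side for *Mcm2* and the upstream side for *Cdt1*. At *Cdt1* the order was SOX2, C-MYC and POLII replicate 2 along the direction of transcription, with replicates of an antibody 19 and 60 bp apart. At *Mcm2* the replicates were 28 bp apart for C-MYC and 8 bp for SOX2, and POLII replicate 2 lay only 4 bp from C-MYC replicate 2. The SOX2 summits there lay 44 to 84 bp from the summits of C-MYC and POLII replicate 2. The resolution of a summit was not measured, so the order of summits cannot be read as an order of bound sites.

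**Figure D4:**
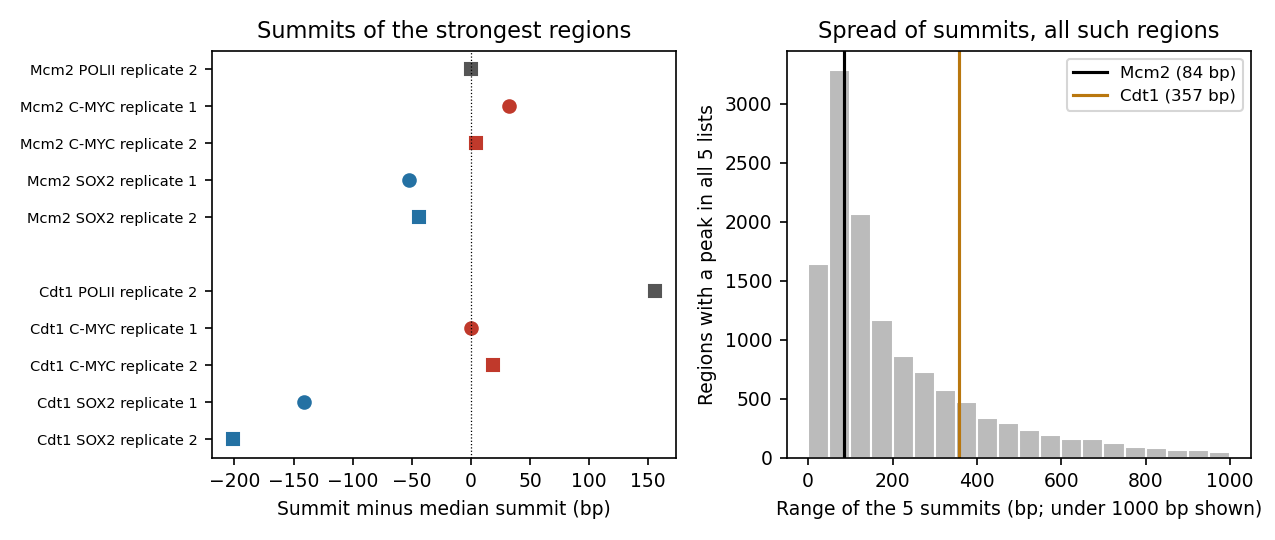
Left, summits of the 5 lists at the strongest *Mcm2* and *Cdt1* regions in bp from their median, with higher coordinates to the right. Right, the range of the 5 summits over all regions with a peak in these lists (bars of 50 bp), with *Mcm2* at 84 bp and *Cdt1* at 357 bp marked.

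The windows also held regions away from the gene starts. In GRCm38.p6 the protein-coding neighbours of *Mcm2* are *Podxl2* on the lower side, also on the minus strand, and *Tpra1* on the upper side, which is transcribed away from *Mcm2*. Next to *Cdt1* lie *Piezo1* on the lower side and *Aprt*, an enzyme gene of adenine salvage on the opposite strand, on the upper side. Without positions of these genes in mm9, no region was assigned to a neighbour, and the distal peaks cannot be claimed for *Mcm2* or *Cdt1*.

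The second *Cdt1* region, chr8:125099134-125101721, lay 8.97 kb above the strongest one and had a peak in all 4 C-MYC and SOX2 lists and in neither POLII list. Of all merged regions, 1.08% had this pattern. C-MYC peaks held 292 and 325 tags there and SOX2 peaks 254 and 81, with folds of 12.03, 11.26, 11.11 and 4.46. The summits of the 4 peaks fell within 69 bp. Among the 1247 regions of this pattern its C-MYC tags exceeded those of 98.8% and 99.0%, and its SOX2 tags those of 98.6% and 86.9%, whereas the median region held 30 to 41 tags per list. Its folds were nearer the middle for C-MYC, above 53.2% and 48.5% of these regions, and lay above 75.1% and 7.22% for SOX2. The nearest peak of POLII replicate 2 lay 6.68 kb away and that of POLII replicate 1 4.85 kb away. A list holds only peaks that passed the authors' threshold, so POLII signal too weak to be called at this place is not known. The smallest peak in either POLII list had 12 tags, but that minimum over a list is not a tag limit at this place.

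At *Mcm2*, a second region 3.65 kb above the strongest one, chr6:88851415-88853280, had peaks in POLII replicate 2 with 170 tags, in C-MYC with 97 and 96 tags, and in SOX2 replicate 1 with 110 tags. SOX2 replicate 2 and POLII replicate 1 had none. SOX2 replicate 1 held 110 tags at both *Mcm2* regions. Folds were 4.80 to 5.81, lower than at the strongest region in each of these 4 lists. This combination of lists was found in 3.74% of merged regions.

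At the lower end of the *Mcm2* window, 24.2 kb below the strongest region, chr6:88823583-88824947 had peaks in POLII replicate 1 (76 tags), both C-MYC replicates (62 and 74 tags) and SOX2 replicate 1 (62 tags). It was the only region of this window that POLII replicate 1 shared with another list, and 0.401% of merged regions had these 4 lists. The POLII replicate 1 peak outranked 94.5% of its list by tags and 7.28% by fold. The remaining *Mcm2* peaks were small. C-MYC replicate 2 (23 tags) and SOX2 replicate 2 (31 tags) shared a region 17.0 kb below the strongest one, and C-MYC replicate 1 had a single peak of 40 tags 4.95 kb below it. POLII replicate 1 had a single peak of 46 tags 11.2 kb below it, and C-MYC replicate 2 one of 42 tags 8.23 kb above it. No *Mcm2* region outside the strongest had a peak in both SOX2 replicates.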

How the data were processed

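ChIP-seq of proliferating iMOP cells was read from 6 peak lists, 2 biological replicates for each of POLII, C-MYC and SOX2. The authors called peaks in each replicate separately on mm9, per the labels. The aligner, peak caller and control are not given in the sources used here. The tags are raw counts per peak as deposited, not scaled for depth. The deposited score is 10 times the −log10 of a p-value, at least 50 in each list. The deposited fold enrichment is a linear ratio over a background that is not stated.

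Windows came with their positions, and *Mcm2*, *Cdt1* and the list of other licensing genes were chosen with earlier results of these data known. The names to report were both genes and their neighbours. The other licensing genes, *Sox2*, *Pax2* and *Isl1*, and genes of similar pattern were to be placed only with an mm9 annotation. The RefSeq table was of GRCm38.p6, so 0 of them were placed. Sequences are from RefSeq, where both genes matched.

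Peaks sharing at least 1 bp were merged (python 3.11.15, numpy 2.4.6, pandas 2.3.3, scipy 1.17.1), and bedtools 2.31.1 gave the same 115440 regions. The code was tested on simulated peaks, where 4 of 4 checks were recovered. Since depth is known only as tags in peaks, values were ranked within a list. Exact permutation tests compared lists. Alternatives changed the ranked value, the peaks used, the window, the overlap and the replicates.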

Additional observations from a re-analysis of the deposited data

How the results depend on the processing

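Of 78 recomputed values of 9 results, 70 kept their direction, stayed within the replicate spread or within 1.5 times the main count, 6 moved and 2 reversed. Some of the 70 could not change. The *Mcm2* rank and the *Mcm2* to *Cdt1* ratio do not include POLII replicate 1, so leaving it out had no effect. With 5 or fewer lists the p of the ratio could not pass 0.05, so only its direction could change. With the 50% of each list with the highest score, the *Mcm2* window held 10 peaks in place of 18. The median *Cdt1* rank, 99.0% by tags, was 94.4% by tags per kb, 73.8% by score and 19.3% by fold enrichment (96.9%, 89.9% and 19.6% without POLII replicate 1, chosen after the data were seen). The C-MYC minus SOX2 rank at *Cdt1* reversed by score, to -27.3 points (exact permutation p = 0.667), but was 13.1 points by score without C-MYC replicate 2, and that of *Mcm2* was 16.7 to 36.7 points under the other rankings. The log2 ratio of *Mcm2* to *Cdt1* reversed by fold enrichment, to 0.71, and was -0.86 with all tags of the windows summed over 6 lists (exact permutation p = 0.0938), or -1.23 without POLII replicate 1. The cause was not tested. Leaving out a list gave ratios of -1.91 to -1.79, *Mcm2* ranks of 79.1% to 81.1%, *Cdt1* ranks of 98.6% to 99.3%, differences of 3.63 to 38.2 points at *Mcm2* and 0.152 to 6.53 points at *Cdt1*. With replicate numbers paired as a block, only the p could change, because the mean of the paired differences equals the difference of the means. The values were 20.9 points (exact permutation p = 0.5) and 3.34 points (exact permutation p = 1). The numbers did not mark shared deviations (r = 0.041 across 13061 regions of C-MYC and SOX2 replicate differences; regions are not independent). Depth is known only as tags in peaks, so the absence of a peak is not the absence of binding.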
